A study of Mus musculus with 4 samples.

Results

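The shared tall regions are 5424 places in the mouse genome at which called regions of set heights on 2 step scales overlapped. They come from a CUT&RUN series on Six3 in neural stem cells, and neither scale could be tied to a library. The deposited table of called CUT&RUN regions holds 1578514 regions, and the highest signal of nearly all of them is a whole multiple either of 1.9 or of 0.48. A region was taken as tall when its highest signal was 7.6, which is 4 steps of 1.9, and as shared when it overlapped by at least 1 bp a region whose highest signal was 1.44, which is 3 steps of 0.48. The rule covered chromosomes 1 to 19 without 5, 10 and 15. These 16 chromosomes hold 1270007 regions, of which 760779 belong to the 1.9-step set, 509226 to the 0.48-step set and 2 to neither. The lowest height in the 1.9-step set there was 3.8, which is 2 steps, and the word tall stands only for 7.6. Of the 124676 tall regions there, 5424 (4.35%) were shared. A further 101185 (81.16%) overlapped no region of the 0.48-step set and are called unshared. The other 18067 overlapped a region of that set of another height only. The members were thus chosen by measured values, the highest signal and the overlap. Just outside the limits lie regions 1 step lower or higher, at 5.7 and 9.5 in the 1.9-step set and at 0.96 and 1.92 in the 0.48-step set.

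The series profiled where Six3 sits on DNA in primary mouse neural stem cells. Its labels give 3 libraries for FLAG on Six3 and 1 library with IgG, an antibody with no chosen target. All 4 libraries share the Six3 overexpression stated for the series, the genotype label WT and 3 h in a neural differentiation medium. The table pools libraries: it has no column for any one of them, the sources used here do not say which of them it combines, and the depth of each is unknown. No value below therefore has a replicate error, FLAG was not set against IgG, and no expression was measured by which the cell type could be checked. How strongly Six3 was overexpressed, and from which promoter, is not given either.

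Six3 is a homeodomain transcription factor needed for the forebrain and the eye, and it can repress its targets together with Groucho-type corepressors of the Tle family. In CUT&RUN an antibody brings micrococcal nuclease to the bound protein in permeabilised cells, and the short DNA pieces that are cut free are sequenced. Transcription factors bind both close to gene starts, where transcription begins, and at enhancers far from genes or inside introns. A set of binding sites is therefore usually described by where its members lie relative to genes. A region found from 2 signals of different scale has been called more than once at a place, but which libraries the signals came from is unknown here.

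Few shared tall regions lay at a gene start, and the sequences there show what such an overlap looks like. On the 15 chromosomes for which promoters were used, 54 promoters of 52 protein-coding genes overlapped a shared tall region. A promoter here is the 250 bases before and 50 bases after a RefSeq start on GRCm38.p6, which has the coordinates of mm10. In 23 of the 54, bases before the start lay inside both the tall region and its 3-step partner. The sequences below are the 250 bases before the start, 5′ to 3′ on the strand of the gene, and capitals mark the bases held by both regions. Mark2, Pef1 and Nkd2 are shown because they were named by rank, and Hnrnpf, Prdm10, Fcho2 and Ankrd49 were chosen after their values were seen, for having the most bases in both regions apart from Mark2. Mark2 encodes a kinase that acts on microtubule-associated proteins, and 199 of its 250 bases (chr19:7341861-7342110, minus strand) were in both. Hnrnpf, which encodes an RNA-binding splicing regulator, had all 250 (chr6:117917044-117917293, plus strand). Prdm10, a zinc finger gene, had 221 (chr9:31280299-31280548, plus strand), and Fcho2, an endocytosis gene, had 210 (chr13:98815450-98815699, minus strand). Ankrd49, a gene for an ankyrin repeat protein, had 185 (chr9:14784574-14784823, minus strand). Pef1, a gene for a calcium-binding protein (chr4:130107306-130107555, plus strand), and Nkd2, an inhibitor of Wnt signalling (chr13:73847632-73847881, minus strand), had none, because there the partner lay past the start or farther upstream.
Mark2: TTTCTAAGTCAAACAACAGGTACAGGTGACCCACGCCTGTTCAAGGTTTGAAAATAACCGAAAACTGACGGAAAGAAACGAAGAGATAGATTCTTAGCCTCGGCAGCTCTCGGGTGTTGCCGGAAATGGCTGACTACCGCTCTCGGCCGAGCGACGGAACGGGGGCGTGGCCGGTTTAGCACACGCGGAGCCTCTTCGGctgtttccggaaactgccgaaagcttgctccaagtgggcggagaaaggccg
Hnrnpf: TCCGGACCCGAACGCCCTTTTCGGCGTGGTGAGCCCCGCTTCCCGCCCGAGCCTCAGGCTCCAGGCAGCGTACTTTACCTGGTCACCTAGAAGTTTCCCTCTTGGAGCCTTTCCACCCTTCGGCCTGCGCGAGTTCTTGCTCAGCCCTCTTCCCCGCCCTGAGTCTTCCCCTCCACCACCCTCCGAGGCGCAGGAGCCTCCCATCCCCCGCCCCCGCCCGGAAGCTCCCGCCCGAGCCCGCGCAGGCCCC
Prdm10: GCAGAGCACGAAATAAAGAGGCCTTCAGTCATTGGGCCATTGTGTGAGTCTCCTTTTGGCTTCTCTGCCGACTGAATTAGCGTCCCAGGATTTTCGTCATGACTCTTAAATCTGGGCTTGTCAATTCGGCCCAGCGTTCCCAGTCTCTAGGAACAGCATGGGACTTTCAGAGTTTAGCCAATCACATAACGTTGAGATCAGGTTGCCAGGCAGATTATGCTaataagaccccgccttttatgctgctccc
Fcho2: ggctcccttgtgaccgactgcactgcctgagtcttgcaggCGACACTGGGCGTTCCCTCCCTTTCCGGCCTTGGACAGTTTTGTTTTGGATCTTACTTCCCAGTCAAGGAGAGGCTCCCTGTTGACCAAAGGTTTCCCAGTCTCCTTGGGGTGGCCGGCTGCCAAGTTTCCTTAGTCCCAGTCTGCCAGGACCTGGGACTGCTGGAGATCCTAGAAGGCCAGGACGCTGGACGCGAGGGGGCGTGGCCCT
Ankrd49: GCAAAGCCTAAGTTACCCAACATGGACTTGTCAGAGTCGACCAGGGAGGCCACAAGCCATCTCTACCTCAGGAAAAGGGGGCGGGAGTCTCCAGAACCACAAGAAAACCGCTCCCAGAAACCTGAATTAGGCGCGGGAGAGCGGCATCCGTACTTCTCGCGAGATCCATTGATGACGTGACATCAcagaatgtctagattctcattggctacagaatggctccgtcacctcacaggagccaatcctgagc
Pef1: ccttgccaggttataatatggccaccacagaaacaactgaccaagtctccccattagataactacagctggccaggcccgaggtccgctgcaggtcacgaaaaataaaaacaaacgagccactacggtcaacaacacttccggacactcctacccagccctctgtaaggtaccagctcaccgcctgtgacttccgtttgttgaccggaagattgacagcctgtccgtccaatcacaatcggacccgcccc
Nkd2: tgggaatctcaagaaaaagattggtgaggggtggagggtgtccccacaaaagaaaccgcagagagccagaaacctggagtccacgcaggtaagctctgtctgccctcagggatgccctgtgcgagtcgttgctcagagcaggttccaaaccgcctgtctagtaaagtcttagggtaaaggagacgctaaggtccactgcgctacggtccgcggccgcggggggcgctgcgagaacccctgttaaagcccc

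These promoters were close in base composition to those that overlapped an unshared tall region. The median GC content was 57.33% (quartiles 54.0% to 61.83%) in the 54 promoters, 57.67% in 858 promoters with an unshared tall region and 56.33% in all 17277 promoters. The median number of CpG dinucleotides was 15, 16 and 13. The letters TAAT, the core of many homeodomain sites, stood on either strand in 26 of the 54 (48.15%, interval 34.34% to 62.16%), in 49.77% of those with an unshared tall region and in 52.02% of all promoters. The letters TGATAC, the core of sites bound by homeodomains of the Six3 kind, were in 0 of the 54, which allows a share of up to 6.603%. They were in 3.497% of promoters with an unshared tall region and in 4.584% of all promoters. At 54 promoters the shares of either motif were not distinguishable from those of all promoters. Among the sequences shown, Prdm10, Fcho2, Ankrd49 and Pef1 hold TAAT in their 300 bases, and Mark2, Hnrnpf and Nkd2 do not. Of 777 annotated miRNA hairpins, 0 overlapped one of the 5424 shared tall regions and 25 overlapped one of the 101185 unshared ones, too few to compare the classes.

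Each interval printed here is an exact (Clopper-Pearson) 95% binomial interval for a share, or a Newcombe interval for a difference of shares. They cover counting over regions only. Regions of 1 pooled table are not replicates, so an interval says nothing of how the values would vary between libraries.

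Shared tall regions were wider and held more signal than unshared ones. Their median width was 566 bp (quartiles 406 to 787 bp, range 131 to 2356 bp), against 472 bp (348 to 649 bp) for unshared regions and 558 bp for tall regions with a partner of another height. Their median summed signal, the signal added over the bases of a region, was 2179.3 (1634 to 2899.4), against 1894.3 (1459.2 to 2492.8) in unshared and 2166 in the third class. Per base the order turned: the median mean signal was 3.86 in shared and 4.01 in unshared regions. The stretch at the highest signal had a median length of 56 bp in shared and 55 bp in unshared regions. Width is tied to the rule, since a wider region has more chances to meet a partner, and these differences are a description only. The share of tall regions that were shared was 2.77% at widths up to 200 bp, 3.97% at 401 to 500 bp and 7.90% above 1000 bp. When the unshared regions were weighted to the widths of the shared ones, the difference in median width came to 6 bp, that in summed signal to 5.7 and that in mean signal to -0.019.

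**Figure D1:**
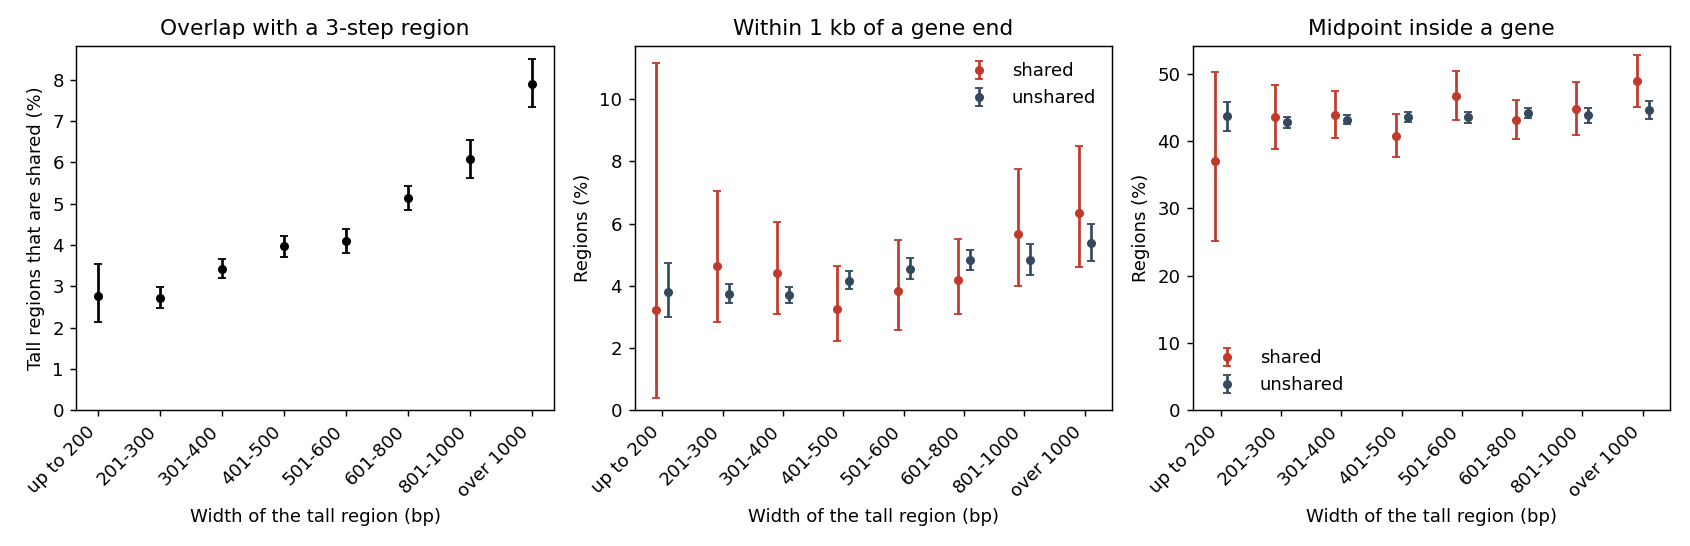
The left panel plots the percentage of tall regions that were shared against the width of the tall region in bp, and the middle and right panels plot the percentage of shared (red) and unshared (blue) regions within 1 kb of a gene end and with the midpoint inside a gene; points are shares and bars exact 95% binomial intervals over regions. The shared percentage climbs from 2.77% to 7.90% with width, while at every width the intervals of shared and unshared regions overlap in the other panels.

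The largest shared tall regions by summed signal lay mostly far from gene ends. The region with the most, 7531.6 over 2289 bp, was 710.3 kb outside Grm7, a metabotropic glutamate receptor gene (chr6:109932787-109935075). Next came a region of 7320.7 that lay 63.1 kb from Rab2a, a small GTPase gene, and one of 7172.5 that lay 240.8 kb from Ipo11, a nuclear import receptor gene. Inside genes, Dpf3, which encodes a subunit of a chromatin remodelling complex, held a region of 7081.3, Shc3, a neuronal adaptor gene, one of 6933.1, and Zbtb20, a zinc finger transcription factor gene, one of 6640.5. The region inside Fam227b reached 6572.1. The remaining regions of the 10 largest were outside Tiam1 (6997.7), which encodes an activator of Rac, outside Hephl1 (6917.9) and outside Akirin2 (6800.1). So 4 of the 10 had their midpoint inside a gene and none was within 1 kb of a gene end. Among all shared tall regions these shares were 44.21% and 4.48%, so the 10 largest were not set apart from the rest. The unshared regions reached higher: 12296.8 outside Smok2a, 10966.8 outside Stmnd1, 9509.5 outside Fancl, 9279.6 at Gm9733 and 9030.7 inside Tmem178b.

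The overlaps with the partners were partial and mostly off-centre. Of the 5424 shared tall regions, 5336 had 1 partner of 3 steps, 83 had 2 and 5 had 3, which makes 5517 pairs. The longest overlap of a shared region had a median of 178 bp (quartiles 105 to 257 bp, range 1 to 780 bp). The centres of a pair lay a median of 199 bp apart (99 to 321 bp). In 35.62% of the pairs the partner lay wholly inside the tall region, in 2.63% the tall region lay wholly inside the partner, and in 61.75% each reached past the other. The median overlap covered 75.46% of the partner and 29.66% of the tall region. The stretches at the highest signal overlapped each other in 1022 shared regions (18.84%, interval 17.81% to 19.91%). In the other 4402 the highest points of both signals lay at different bases of the same place.

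The fit between the regions did not tighten with the height of the partner. Tall regions that met a 2-step region overlapped it by a median of 145 bp, their centres lay 189 bp apart, and the highest stretches overlapped in 22.26% (21.65% to 22.89%). With partners of 4 or more steps these values were 195 bp, 219 bp and 15.47% (13.52% to 17.58%). The partners themselves widened with height, from a median of 190 bp at 2 steps to 267 bp at 3 steps and 335 bp at 4 or more.

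**Figure D2:**
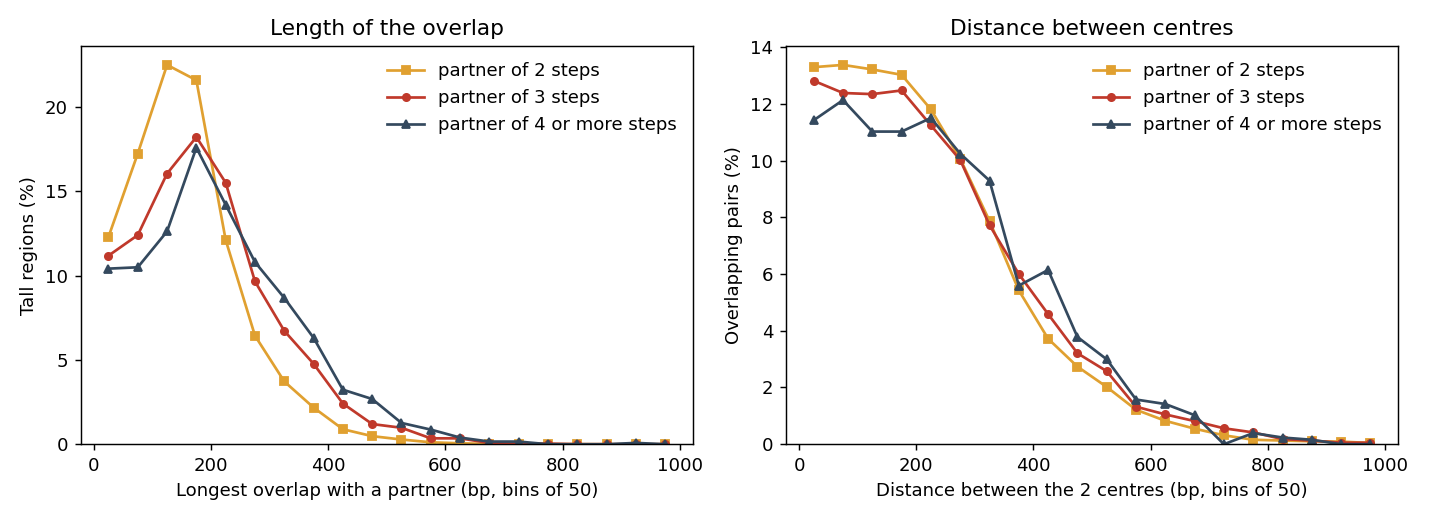
The left panel plots the percentage of tall regions by the length of their longest overlap with a partner, and the right panel the percentage of overlapping pairs by the distance between centres, both in bins of 50 bp, for partners of 2 steps (yellow), 3 steps (red) and 4 or more steps (blue). Overlaps peak between 100 and 200 bp for every partner height, and the share of pairs falls off from about 200 bp between centres.

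The longest overlaps lay mostly outside genes, at distances of 2.6 kb to 1347 kb from the nearest one. The longest, 780 bp, lay 33.9 kb from Inhbb, which encodes a subunit of activins and inhibins (chr1:119380503-119381582), and there the stretch at the highest signal was 685 bp long. An overlap of 774 bp lay 208.5 kb from Erbb4, a receptor gene for neuregulins. An overlap of 736 bp, 64.7 kb from B020011L13Rik, and one of 686 bp, 203.2 kb from Tbc1d5, a regulator of endosomal traffic, took in the whole partner. Overlaps of 678 bp (2.6 kb from Zfp335), 660 bp (125.4 kb from Mrps30), 650 bp (1347 kb from Tmeff2), 644 bp inside LOC115485924 and 643 bp inside Tnrc6a, a gene of microRNA-guided silencing, followed. The tenth, 641 bp, lay inside Traf1, an adaptor gene of tumour necrosis factor receptors, and was the only 1 of the 10 within 1 kb of a gene end, at 548 bp. Among all shared tall regions, 44.21% had the midpoint inside a gene and 4.48% lay within 1 kb of an end. The 10 are too few to be set apart from these shares.

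The partners of shared tall regions were a small part of the 3-step regions. There were 5497 of them, 5.403% of the 101743 regions of 3 steps, which together cover 1.39% of the chromosome span. Their median width was 267 bp, against 242 bp in all 3-step regions and 235 bp in the 71074 that met no region of the 1.9-step set. Their median summed signal was 220.32, against 206.4 and 201.6 in the same order. Of the partners, 3.857% lay within 1 kb of a gene end, against 3.55% of all 3-step regions, and 44.26% had the midpoint inside a gene, against 41.73%. As with the tall regions, a wider 3-step region meets more regions, and the partners were not compared at equal widths. The 1.39% of the span is no baseline for the 4.35% of tall regions that were shared, since an overlap of 1 bp counts. No expected share is given. At other heights of the 1.9-step set a similar share met a 3-step region: 3.958% at 3.8, 3.995% at 5.7, 4.568% at 9.5 and 4.682% at 11.4 or more.

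Near gene ends, shared and unshared tall regions were not distinguishable within 1 kb. A gene end is either end of a protein-coding gene, since the gene table gives no strand. Of the shared regions 243 of 5424 (4.48%, interval 3.945% to 5.065%) lay within 1 kb of an end, and of the unshared 4347 of 101185 (4.296%, 4.172% to 4.423%). The difference was 0.18 percentage points (-0.35 to 0.78), and 0.004 with the unshared regions weighted to the same widths. Around starts alone, 120 of 5207 shared regions (2.305%) and 2.186% of unshared regions lay within 1 kb, a difference of 0.118 points (-0.267 to 0.571). Starts were used for 80.31% of the protein-coding genes, so the start shares leave out regions at the remaining starts. The promoters themselves were met by 49 shared regions (0.941%) and by 0.795% of unshared regions, a difference of 0.146 points (-0.09 to 0.451).

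The same held inside genes. The midpoint of 2398 shared regions (44.21%, 42.88% to 45.54%) and of 43.56% of unshared regions (43.26% to 43.87%) lay inside a protein-coding gene. The difference was 0.649 points (-0.703 to 2.009), and 0.482 at equal widths. Of the shared regions, 2999 lay wholly outside genes, at a median of 68.2 kb (quartiles 14.58 to 249.2 kb) from the nearest gene, against 69.06 kb for unshared regions. Outside genes, both kinds of tall region thus lay at nearly the same median distance from a gene, with lower quartiles of 14.58 and 16.3 kb.

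A small difference appeared in wider windows. Within 5 kb of a gene end lay 868 shared regions (16%) and 14.79% of unshared regions, a difference of 1.21 points (0.23 to 2.23), or 1.02 at equal widths. Within 10 kb lay 1401 shared regions (25.83%) and 23.99% of unshared regions, a difference of 1.84 points (0.67 to 3.05), or 1.6 at equal widths. At 0.5 kb and 2 kb the differences were 0.26 (-0.17 to 0.76) and 0.38 points (-0.31 to 1.14). The windows are nested, so these are 5 views of the same regions, and those of 2 and 10 kb were chosen after the data were seen. Without chromosome 11 the difference was -0.21 points (-0.73 to 0.37) at 1 kb, 0.89 (-0.1 to 1.93) at 5 kb and 1.47 (0.27 to 2.71) at 10 kb. At 1 kb the sign therefore rests on chromosome 11, and at 5 kb the interval takes in 0 without it.

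**Figure D3:**
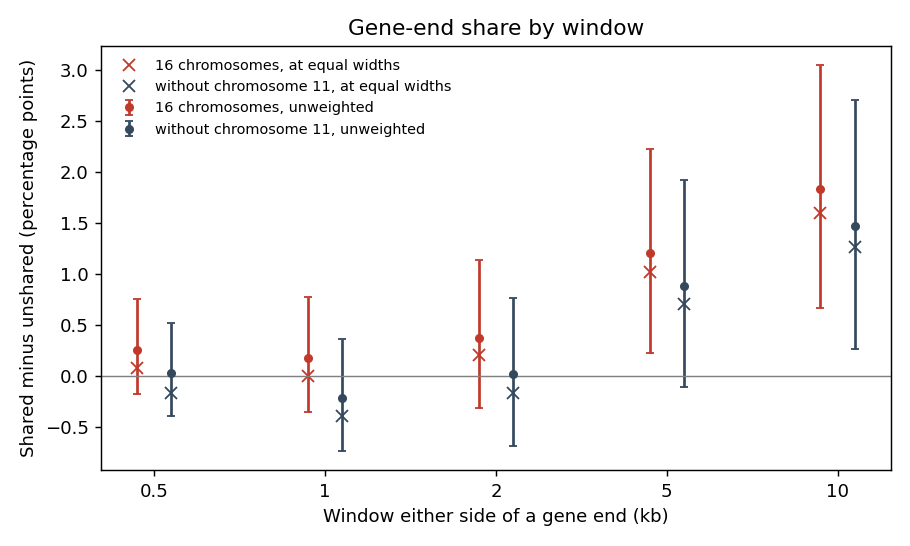
The difference between the percentages of shared and unshared tall regions near a gene end, in percentage points, is plotted against the window either side of the end in kb, with all 16 chromosomes (red) and without chromosome 11 (blue); circles are unweighted differences with Newcombe 95% intervals over regions, and crosses are differences at equal widths. The differences lie near 0 up to 2 kb and reach 1.84 points at 10 kb, or 1.47 without chromosome 11.

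Chromosome 11 stood apart in its shared regions at gene ends. There 44 of 361 shared regions (12.19%, 8.997% to 16.02%) lay within 1 kb of an end, against 6.592% of the unshared regions of that chromosome. On the other 15 chromosomes the share of shared regions ran from 1.987% on chromosome 8 to 6.117% on chromosome 9. Chromosome 7, with more genes per Mb (14.26) than chromosome 11 (13.54), had 4.384% of its shared and 6.693% of its unshared regions there. The chromosome was singled out from 16 after its values were seen. The 44 regions were nearest to 44 different genes and spread over 32 bins of 1 Mb, with at most 3 in a bin. Their median width was 727 bp and their summed signal ran from 980.4 to 4561.9 with a median of 2898.45. The share of tall regions that were shared was not high on chromosome 11, at 4.635% (4.179% to 5.126%), within a range over the chromosomes from 4.043% on 18 to 4.764% on 9.

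The genes at these ends on chromosome 11 had varied roles, and those named here were chosen after their values were seen, apart from LOC666331, Dhx40, Mrpl12, Caskin2 and Myh1. Alox12e, a lipoxygenase gene, had the largest summed signal of the 44, 4561.9 at 855 bp from the end. LOC666331 had 4525.8 with the end inside the region. Ccdc47, a gene of membrane protein biogenesis in the endoplasmic reticulum, had 4514.4 at 202 bp. Rnf43, a ubiquitin ligase gene that restrains Wnt signalling, had 4092.6 at 857 bp, and Itga3, an integrin gene, 3963.4 at 632 bp. Slc6a4, the serotonin transporter gene, had 3511.2 with the end inside the region, and Srsf1, a splicing factor gene, 3477 at 563 bp. The smallest was at Llgl2, a cell polarity gene, with 980.4 at 348 bp. At Dhx40, an RNA helicase gene, Mrpl12, a mitochondrial ribosome gene, and Caskin2, a scaffold gene, the highest stretch also overlapped that of the partner.

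**Figure D4:**
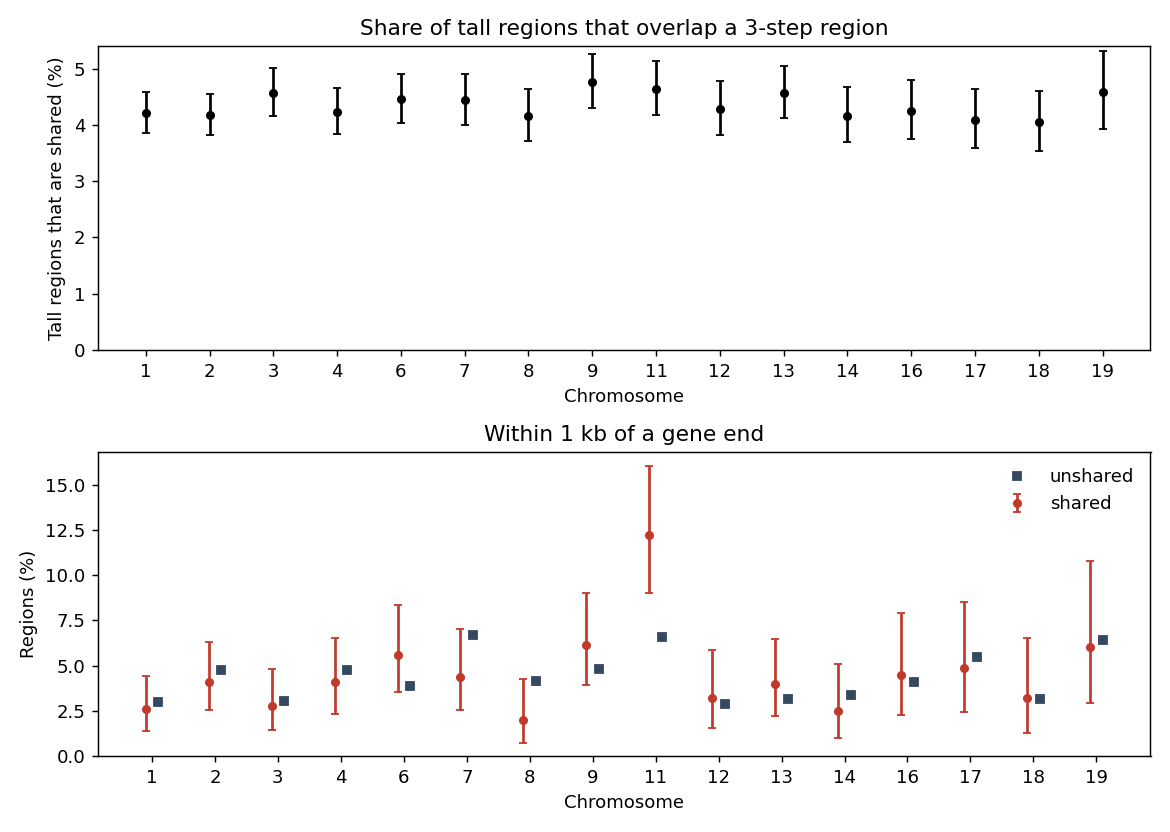
The upper panel plots, for each of the 16 chromosomes, the percentage of tall regions that were shared, and the lower panel the percentage of shared (red) and unshared (blue squares) regions within 1 kb of a gene end; bars are exact 95% binomial intervals over regions. The upper values lie between 4.043% and 4.764%, and in the lower panel the shared regions of chromosome 11 reach 12.19%.

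Along the chromosomes the shared regions were scattered. Neighbouring shared regions lay a median of 248.8 kb apart (quartiles 95.46 to 501.3 kb), and 183 of 5408 gaps (3.384%) were under 10 kb. Of 2034 bins of 1 Mb that held a tall region, 189 held no shared one, the median bin held 2 and 149 bins held 6 or more. The fullest bin, chr6:83000001-84000000, had 12 shared among 81 tall regions and takes in Vax2 and Rtkn. The bin chr13:76000001-77000000 had 11 of 84 and takes in most of Mctp1. Bins with 9 each lay on chromosome 11 (chr11:86000001-87000000, which holds Dhx40, with 79 tall regions) and on chromosome 12 (chr12:99000001-100000000, which holds Foxn3, with 65, and chr12:103000001-104000000 with 50).

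Shared tall regions touched a small part of all genes. Of 17619 protein-coding genes, 266 (1.51%) had a shared tall region within 1 kb of an end, and 1870 (10.6%) had the midpoint of one inside. Unshared tall regions, of which there are many more, were at the ends of 4281 genes (24.3%) and inside 10161 (57.7%). Of the 1870 genes, 1517 held 1 shared region, 334 held 2 to 4 and 19 held 5 or more. The genes with a shared region inside were long, with a median of 87.05 kb against 17.14 kb for all genes and 1004 kb for those with 5 or more. A longer gene has more room for a region of any kind, so these lengths are a description only. The length of genes with an unshared region inside is not given.

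The genes with the most shared regions inside were long ones. Pde4d, a phosphodiesterase gene that breaks down cyclic AMP, held 11 shared among 109 tall regions (10.09%, 5.146% to 17.34%). Among those with 7 each were Mctp1 (of 56 tall regions), Pard3b, a polarity gene (of 78), Lrp1b, a lipoprotein receptor family gene (of 104), and Ptprd, a receptor phosphatase gene of synapses (of 116). Cadps, a gene of dense-core vesicle release, held 6 of 30 (interval of the share 7.714% to 38.57%), Gpc6, a glypican gene, 6 of 62, and Lsamp, a neuronal adhesion gene, 6 of 108. Foxn3, a forkhead factor gene, held 5 of 23 (21.74%, 7.46% to 43.7%); it was 1 of 10 genes with 5, and was named as the shortest of them. These genes were picked for their counts, so their shares are not set against the 4.35% of all tall regions. Per Mb of gene, Cadps (450.8 kb) held 13.31 shared regions and Lsamp (2197 kb), with the same count, 2.73, so the order by count is not an order by density.

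At Six3 itself (chr17:85613608-85626191) no tall region was shared. There were 2 tall regions inside the gene, and within 100 kb of it 0 of 11 tall regions were shared. As 4.35% of all tall regions were shared, 11 are too few to show a lack of them near Six3. The nearest shared region lay 109.6 kb away, at chr17:85503154-85503996, with Camkmt as its nearest gene and a summed signal of 2998.2.

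Across 17 lists of developmental, signalling and cell type genes, a few genes had a shared tall region at an end: Six5, Emx2, Vax2, Jag1, Sp5, Smad1, Myh1, Myh2 and Cdh5. The lists hold 294 genes, of which 237 lie on the 16 chromosomes, and these 9 (3.797%, 1.751% to 7.086%) had one, beside 1.51% of all protein-coding genes. An unshared tall region was at an end of 54 of the 237 (22.78%, 17.6% to 28.66%), beside 24.3% of all genes. Inside 36 of the 237 genes (15.19%) lay a shared region, beside 10.6% of all genes; the listed genes had a median length of 22.03 kb against 17.14 kb. Of 1011 tall regions inside listed genes 44 were shared (4.352%, 3.18% to 5.799%), beside 4.35% of all tall regions. The lists were drawn up with earlier results of the series known, and 2 of the 9 genes, Myh1 and Myh2, share 1 region. The count was lower where longer overlaps were required. With at least 50 bp it was 7 (2.954%, beside 1.345% of all genes), without Vax2 and Cdh5. With at least 50% of the narrower region it was 5 (2.11%, beside 1.107%), without Six5 and Smad1 as well.

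In the list of Six3 relatives and cofactors, 1 of 13 had a shared region at an end and 5 of 13 had one inside. The shares over all protein-coding genes were 1.51% and 10.6%. Genes of this list were long, with a median of 46.17 kb against 17.14 kb for all genes. Inside them 6 of 70 tall regions were shared, beside 4.35% of all tall regions, and the difference was not tested. Six5, a homeobox gene of the same family, was the 1 with an end: the region chr7:19094832-19095551 had a summed signal of 3155.9 and met its partner over 61 bp. Inside genes, Eya2, a coactivator gene for proteins of this family, held 2 of 15 tall regions. Dach1, a corepressor in the same network, held 1 of 14. Tle1 and Tle4, corepressor genes of the Groucho type, held 1 of 6 and 1 of 11.

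In the list of forebrain and eye patterning genes, 2 of 18 had a shared region at an end, Emx2 and Vax2. The share over all protein-coding genes was 1.51%, and a count of 2 does not set the list apart. Emx2, a homeobox gene of the cerebral cortex, had a region of 327 bp (chr19:59464956-59465282) with a summed signal of 1987.4 and a mean signal of 6.08 per base, and it met its partner over 137 bp. Vax2, a homeobox gene of the ventral eye, had a region of 1135 bp with 3298.4 summed and 2.91 per base (chr6:83711651-83712785), and it met its partner over 18 bp. The region at Emx2 was narrow, with a mean above the 3.86 median of shared tall regions but below its highest signal of 7.6. The region at Vax2 was wide, with a short overlap at its edge.

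Among signalling pathways, single members had a shared region at an end. For Wnt this was Sp5, a target and repressor of Wnt signalling, 1 of 19, where a region with 2337 summed signal at 176 bp from the end held the whole partner of 263 bp. For BMP it was Smad1, a mediator of BMP signals, 1 of 20, with a summed signal of 5253.5 over 1397 bp. For Notch it was Jag1, a Notch ligand, 1 of 16, and this region lay closer to the end of its neighbour Slx4ip, at 23 bp. In the Hedgehog list 0 of 12 had one at an end, and 4 of 12 held 1 each inside: the receptor gene Ptch1 (of 12 tall regions), the transcription factor genes Gli2 (of 23) and Gli3 (of 13), and Hhip (of 7), which encodes a protein that binds Hedgehog ligands. Bmpr1b, a BMP receptor gene, held 3 of 29. Shared regions lay inside 4 of 12 Hedgehog genes, 4 of 20 BMP, 1 of 19 Wnt and 0 of 16 Notch genes. The share over all protein-coding genes was 10.6%. Median gene lengths in these lists were 79.98, 42.79, 42.72 and 23.13 kb, against 17.14 kb for all genes. In order, 4 of 87, 6 of 96, 1 of 75 and 0 of 77 tall regions inside were shared, beside 4.35% of all.

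In the lists of cell types, the labelled one included, and of housekeeping genes, 3 genes had a shared region at an end. These were Myh1 and Myh2, myosin genes of skeletal muscle, 2 of 14, and Cdh5, a cadherin of endothelial cells, 1 of 13. The lists of neural stem cells (11 genes), interneuron and striatal factors (17), pan-neuronal genes (15), astrocytes (10), oligodendrocytes (11), motile cilia (12), housekeeping (11), liver (15) and blood and microglia (13) had 0 with one at an end. Inside genes, Nfia, an astrocyte factor gene, held 4 of 45 tall regions, Foxp1, a striatal factor gene, 2 of 34, and Dnah9, a gene of motile cilia, 2 of 21. Pan-neuronal Rbfox3, Elavl4, Gap43 and Ncam1 held 1 each, and so did Egfr, a growth factor receptor gene of the stem cell list. With counts of 0 to 2 in lists of 10 to 20 genes, no list was set apart from another.

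Within the shared tall regions, a closer fit with the partner did not go with a higher gene-end share. Where the highest stretches overlapped, 37 of 1022 (3.62%, 2.562% to 4.956%) lay within 1 kb of an end, against 206 of 4402 (4.68%, 4.075% to 5.346%) where they did not. Around starts alone the shares were 15 of 987 (1.52%, 0.853% to 2.494%) and 105 of 4220 (2.488%, 2.039% to 3.004%) on the 15 chromosomes with starts. The intervals overlap in both cases, but no interval was made for the differences, so this does not show that the shares are equal. With the regions split into 4 classes of nearly equal size by the length of the overlap, the gene-end shares were 4.313%, 4.003%, 5.162% and 4.441% from the shortest to the longest, with no steady order.

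The members whose highest stretches overlapped and that lay closest to a gene end were at 10 named places. In 7 the end lay inside the region: LOC666331, Dhx40, Mrpl12 and Caskin2 on chromosome 11, Pef1, Mark2, and Gmppb, which encodes an enzyme of sugar nucleotide synthesis. Their summed signals ran from 1098.2 at Gmppb to 4525.8 at LOC666331. The region at Caskin2 is named by its closest gene end, and it also overlapped the neighbour Tsen54. The 3 next lay 37 bp from 9530057J20Rik, 38 bp from the end of Scg3, a secretory granule gene, and 81 bp from Nkd2. The region at Scg3 was short, 198 bp with a summed signal of 1043.1. The region at Gmppb lay wholly inside a wider partner of 658 bp, which was the case for 2.63% of pairs.

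Other heights of the 1.9-step set, taken with any partner of 3 steps, did not give 1 trend. At 3.8 the gene-end difference between regions with and without a partner was 0.06 points (-0.3 to 0.45). At 5.7 it was 0.46 (0.1 to 0.85), with 4.603% against 4.141%, and 0.32 at equal widths. At 9.5 it was 1.71 (0.58 to 3.06), with 6.362% of 1556 regions against 4.649%, and 1.4 at equal widths. At 11.4 or more it was -0.58 (-2.14 to 1.66) over 486 regions. Without chromosome 11 the differences at 5.7 and 9.5 were 0.46 (0.09 to 0.86) and 1.42 (0.29 to 2.77). So the tall regions at 7.6, with 0.18 points, lie between heights at which the interval lies above 0.

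For midpoints inside genes the differences were 0.17 points at 3.8, 1.1 (0.21 to 1.99) at 5.7, 0.65 at 7.6, -0.01 at 9.5 and 6.9 (2.34 to 11.45) at 11.4 or more. In the last case 50.62% of 486 regions with a 3-step partner were inside genes, against 43.71% without one. The grid holds 10 such differences, and their intervals are not adjusted for that number. Tall regions of 7.6 whose highest partner had 2 steps (16838) or 4 or more steps (1267) had gene-end shares of 4.508% and 4.42% and gene-body shares of 43.86% and 43.57%, close to the 4.48% and 44.21% of the shared regions.

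**Figure D5:**
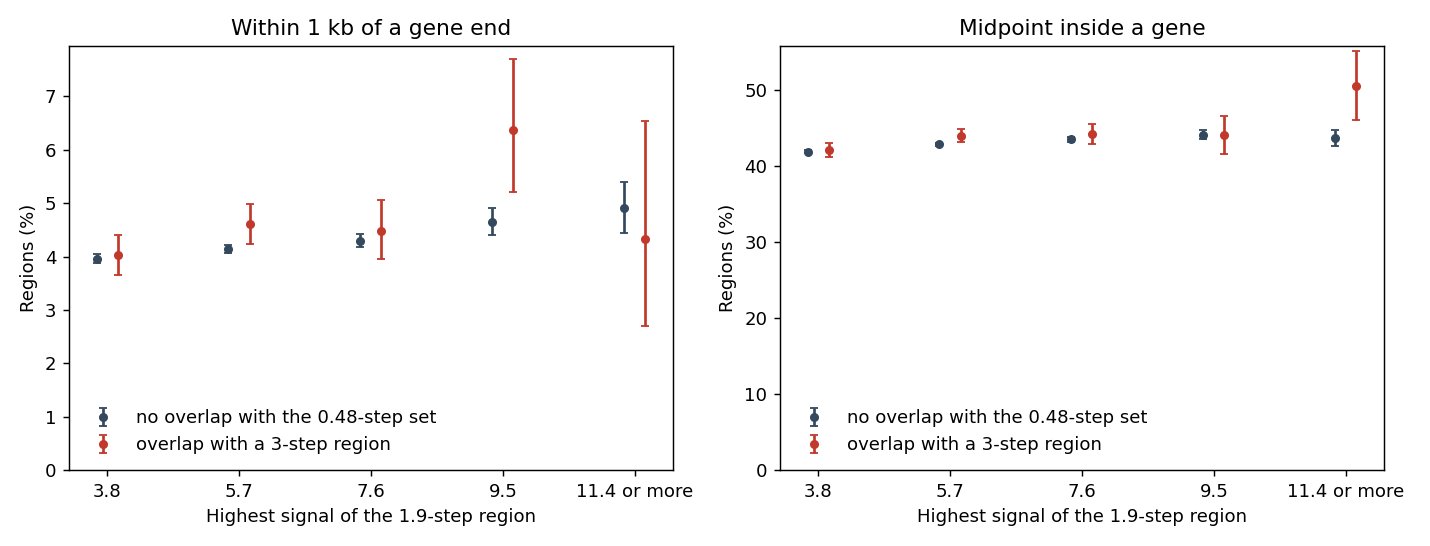
The percentage of regions within 1 kb of a gene end (left) and with the midpoint inside a gene (right) is plotted against the highest signal of the 1.9-step region, for regions without a 0.48-step overlap (blue) and with a 3-step partner (red); bars are exact 95% binomial intervals over regions. At 7.6 the points of both kinds lie close together, while at 9.5 the gene-end share with a partner is 6.362% against 4.649%, and at 11.4 or more the gene-body share is 50.62% against 43.71%.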

How the data were processed

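The authors deposited 1 table of called regions without a header, in the 6-column layout of SEACR. The tools that the submitters' processing notes name are Bowtie2, deepTools and SEACR, on mm10. The name under which the regions were deposited also holds the words Six3, spikein and bedops, and no use was made of these words here. The sources used here do not give versions, settings or the way libraries were pooled. As deposited by the authors, the table holds the highest signal of each region, the position of that stretch, and a score that sums the signal over the bases. These values are the authors' own and are used here only to describe and filter regions within this table.

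A highest signal was put in a step set when, divided by 1.9 or 0.48, it lay within 0.001 of a whole number; signals of different sets need not be on 1 scale. Why the signals come in such steps was not tested. The limma fit planned between FLAG and IgG could not be run, since no column belongs to a library, and 0 columns of per-sample values were left unused. Genes were the protein-coding entries of a RefSeq table (GRCm38.p6), without strand. Promoters came from RefSeq sequences for 80.31% of these genes; those of chromosome 18 were not used here, which leaves 15 chromosomes for starts and promoters. Unshared regions were standardised to the shared widths over 8 width bins. The counting of overlaps, the gene-end share, the intervals and the weighting were tested on simulated data.

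The members and gene lists were chosen with earlier results of these data known. Genes were named by rule: the nearest genes of the 10 shared regions with the largest summed signal, the 10 with the longest overlap and the 10 closest to a gene end with overlapping highest stretches, the 10 genes with the most shared regions, listed genes with one at an end, the 5 unshared regions with the largest summed signal, and Six3. A gene that this rule selects is not reported here. Motifs were searched on both strands. The alternatives changed the overlap, the heights, the gene-end window, the gene set, the weighting and the chromosomes. Versions were Python 3.11.15, numpy 2.4.6, scipy 1.17.1, pandas 2.3.3 and matplotlib 3.10.9.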

Additional observations from a re-analysis of the deposited data

How the results depend on the processing

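The table pools all libraries it holds, so no alternative could leave out a library, and no paired analysis was possible because no column belongs to a replicate. Of 106 values recomputed with 1 choice changed, 66 stayed within the 95% interval of the value given (for a count, within 1.5 times it) and 40 moved beyond it. For a median this interval came from the ranked values, and for a difference of medians from the intervals of both medians. With an overlap of 50 bp or more the median width was 575 bp, the summed signal 2219.2, the overlap 193 bp and the share of overlapping highest stretches 21.175%, and the differences from unshared regions were 103 bp and 324.9. With an overlap of at least 50% of the narrower region these were 591 bp, 2261, 216 bp, 26.028%, 119 bp and 366.7, the mean signal was 3.824, a difference of -0.18625, and 5 listed genes had a shared region at an end. With 2-step partners there were 16838 shared regions. At 7.6 or higher the width, summed and mean signal were 582.5 bp, 2369.3 and 4.0225. At 5.7 there were 12492 shared regions with 496 bp, 1594.1 and 3.2135, and the differences were 65 bp, 176.7 and -0.08728. The gene-end share was 2.987% at 500 bp, 7.670% at 2 kb, 16.003% at 5 kb and 25.83% at 10 kb, with differences of 1.21 and 1.84 points at 5 and 10 kb. It was 3.5214% by midpoint, 3.4845% by the centre of the highest stretch, 2.3046% around starts only and 8.905% with all genes of the table, which gave a gene-body share of 52.821%. At equal widths the differences in width, summed and mean signal were 6 bp, 5.7 and -0.018956. Leaving out each chromosome in turn, the gene-end share ran from 3.9305% (without chromosome 11) to 4.6701%, its difference from -0.21 to 0.36, the gene-body share from 43.591% to 45.105%, its difference from 0.38 to 1.01, the width from 564 to 568 bp and the summed signal from 2173.6 to 2186.9. The causes were not tested. Weighting the unshared regions cannot alter the medians of the shared regions and gave no such value. The windows of 2 and 10 kb, starts only, the centre of the highest stretch and the alternatives for gene lists and for differences in width and signal were added after seeing the data, as were the heights without chromosome 11. The depth per library is unknown, and no limit that needs it is given.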
